A study of Mus musculus with 4 samples.

Results

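Ift20 and 9 other genes of the intraflagellar transport machinery, called partners below, were followed in immune cells from mouse lung. The 10 genes were chosen by symbol (Ift20, Ift22, Ift27, Ift46, Ift52, Ift57, Ift80, Ift88, Ift140 and Ift172), and all 10 were found among the 31053 genes that each library lists. The study compared Ift20 f/f mice (WT) with Ift20 f/f CD4 cre mice (KO), all C57BL/6 young males, so both genotypes carried the floxed alleles and only the KO mice carried Cre. Papain, a cysteine protease that acts as an inhaled allergen, was given intranasally at 25 µg for 3 consecutive days and once more on day 14, control mice were given DPBS, a buffered saline, and lungs were collected on day 15. Live CD45.2+ cells, which are white blood cells, went into 4 single-cell libraries of the 10x Genomics 3′ v3 chemistry, 1 for each genotype and treatment, named here as in Papain KO or DPBS WT. The Cd4 promoter drives Cre from the CD4+CD8+ stage of thymocytes, so Cre acts in developing CD4 and CD8 T cells alike. The labels do not say how many mice went into a library. With 1 library per group no difference below has a replicate check, the CD4 and CD8 T cells of a group share that library, each library enters both a genotype and a treatment comparison, and every interval is a 95% interval for counting error only.

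Intraflagellar transport moves protein cargo along the microtubules of the cilium. The particles have a larger complex, IFT-B, carried outward by kinesin-2, and a smaller one, IFT-A, needed for the return on cytoplasmic dynein-2. IFT20 is a small IFT-B subunit that also sits at the Golgi apparatus, where it sorts membrane proteins destined for the cilium. Most white blood cells have no primary cilium, but in T cells IFT20 and some of its partners take part in the recycling of T cell receptors towards the immune synapse, the contact with an antigen-presenting cell.

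Ift20 lies on chr11:78536361-78541737 (GRCm38, plus strand). Its transcript Ift20-203 has 6 exons, of which Cre removes exon 2 (chr11:78538510-78538738), which is all 5′ untranslated, and exon 3 (chr11:78538834-78538962). Exon 3 carries the start codon and 127 of the 396 coding bases, or 32.1%. The coding part of exon 3, read from the annotated transcript in 5′ to 3′ direction, is shown here with the start codon in capitals. Under that numbering it is the stretch of protein code that the KO allele lacks.
Ift20 exon 3, chr11:78538836-78538962: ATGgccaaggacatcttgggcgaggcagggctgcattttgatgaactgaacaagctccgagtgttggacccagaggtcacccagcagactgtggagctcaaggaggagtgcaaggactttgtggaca
Another 567 bases of the transcript follow exon 3, and a 3′ library reads the end of a transcript. The UMIs (unique molecular identifiers, each marking 1 captured RNA molecule) counted here as Ift20 therefore come from outside the deleted exons. They do not check the deletion itself, and RNA from an intact and from a recombined allele cannot be told apart.

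The files held 5863 to 8552 barcodes and 53854420 to 75675956 UMIs per library, and 5421 to 7559 cells per library were kept, with a median of 5827 to 6678 UMIs per cell. Cells were placed in 13 gates by counting distinct marker genes with at least 1 UMI, for example Cd3e together with at least 2 of Cd3e, Cd3d, Cd3g and Trac for T cells, which were split by Cd4, Cd8a and Cd8b1 UMIs. The CD4 T gate held 701 cells in WT and 440 in KO with DPBS, and 872 and 515 with papain. The CD8 T gate held 1007 and 628 with DPBS, and 644 and 732 with papain. Summed T markers reached 2728 to 2924 UMIs per 1000000 UMIs of the gate (CPM) in the CD4 T gate and 2444 to 2758 CPM in the CD8 T gate, against 11.5 to 16.1 CPM in the B cell gate. Summed B cell markers stood at 11.4 to 17.1 CPM in the CD4 T gate, 15.4 to 25.6 CPM in the CD8 T gate and 5378 to 6430 CPM in the B cell gate. Summed monocyte markers were higher in the CD8 T gate, at 263 to 447 CPM, than in the CD4 T gate, at 9.98 to 16.4 CPM. The monocyte gate held 1816 to 2199 CPM of them. The libraries of a pair shared 7 to 16 barcodes.

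Ift20 was about 3-fold lower in KO than in WT T cells, to a similar extent in CD4 and CD8 cells and with either treatment. In CD4 T cells its level was 61.5 CPM in DPBS WT (296 UMIs, interval 54.7 to 69.0) and 19.4 CPM in DPBS KO (58 UMIs, 14.7 to 25.1), a 3.17-fold lower level. After papain it was 63.9 CPM in WT (427 UMIs, 58.0 to 70.3) and 19.8 CPM in KO (79 UMIs, 15.7 to 24.7), which is 3.23-fold lower. The log2 ratios of KO over WT were -1.66 (-2.10 to -1.25) and -1.69 (-2.06 to -1.34). The WT and KO intervals lay far apart in both treatments, while the 2 WT libraries resembled each other, as did the 2 KO libraries.

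CD8 T cells held Ift20 at 53.7 CPM in DPBS WT (384 UMIs) and 16.8 CPM in DPBS KO (84 UMIs), a log2 ratio of -1.68 (-2.04 to -1.34). After papain the levels were 53.3 CPM in WT (292 UMIs) and 15.4 CPM in KO (101 UMIs), a log2 ratio of -1.79 (-2.13 to -1.46). KO T cells thus kept 28.9% to 31.5% of the WT level over both cell types and treatments. T cells with neither a Cd4 nor a Cd8 UMI, a gate that can hold CD4 and CD8 cells in which these genes were missed, had log2 ratios of -1.39 (-1.89 to -0.91) with DPBS and -2.05 with papain (33 UMIs in KO and 174 in WT). Cells were shallow for Ift20, with at most 7 UMIs in any CD4 T cell and 5 in any CD8 T cell.

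The CD4 T cells with a UMI of Foxp3, the transcription factor of regulatory T cells, numbered 32 in WT and 21 in KO with DPBS, and 86 and 31 with papain. In them Ift20 was at 110 CPM (32 UMIs, 75.2 to 155) in DPBS WT and 90.6 CPM (93 UMIs, 73.1 to 111) in Papain WT. Both intervals lay above those of the whole CD4 T gate in the same library, of which these cells are a part. In KO the same Foxp3+ gate held 1 Ift20 UMI with DPBS and 9 UMIs (28.4 CPM) with papain, so that the log2 ratios of -4.46 (-9.81 to -1.88) and -1.67 (-2.85 to -0.69) rest on few molecules.

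Outside T cells the KO and WT libraries had similar Ift20 levels, with B cells after DPBS as the exception among the deep gates. Alveolar macrophages, the resident phagocytes of the air spaces, held 58.1 and 60.3 CPM in DPBS WT and KO and 65.2 and 58.7 CPM in Papain WT and KO, with log2 ratios of 0.05 (-0.06 to 0.17) and -0.15 (-0.32 to 0.01). Monocytes had ratios of -0.11 (-0.38 to 0.16) and -0.10 (-0.35 to 0.15). B cells held 46.5 CPM in DPBS WT (470 UMIs) and 34.9 CPM in DPBS KO (241 UMIs), a log2 ratio of -0.41 (-0.64 to -0.19), but 43.5 and 45.8 CPM in Papain WT and KO, a ratio of 0.08 (-0.10 to 0.25). The DPBS KO library was thus the low one of 4 in B cells. Natural killer (NK) cells, group 2 innate lymphoid cells (ILC2), neutrophils, dendritic cells (DC) and interstitial macrophages had 11 to 111 Ift20 UMIs per library, and the interval of each KO over WT ratio in them included 0. Gamma-delta T cells had 4 to 18 UMIs and ratios of -0.41 (-1.88 to 0.97) and -1.23 (-3.25 to 0.38), and T cells with NK receptors had 2 to 14 UMIs and ratios of -2.12 (-5.30 to 0.00) and -1.07 (-2.66 to 0.39), which is too few molecules to place either gate.

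**Figure D1:**
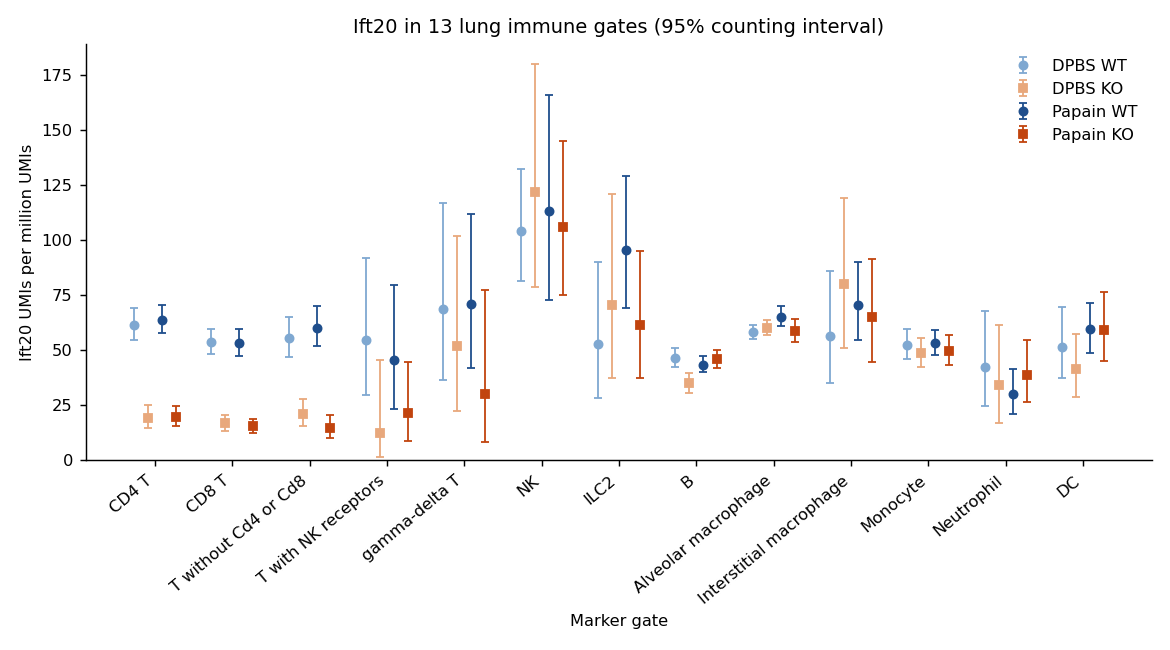
Level of Ift20 in CPM (vertical axis) in each of the 13 marker gates (horizontal axis), for the 4 libraries. Points are pooled UMIs of 1 library and bars are 95% counting intervals. In the CD4 T gate the KO libraries sit at 19.4 and 19.8 CPM and the WT libraries at 61.5 and 63.9 CPM, while alveolar macrophages hold 58.1 to 65.2 CPM in all 4.

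Among the 13 gates of the DPBS WT library Ift20 ranged from 42.3 CPM (24.6 to 67.7) in neutrophils to 104 CPM (81.3 to 132) in NK cells, killer lymphocytes without an antigen receptor. The same gates were at the ends in Papain WT, with 30.0 CPM (21.0 to 41.5) and 113 CPM (73.0 to 166). In DPBS WT the NK interval lay above those of CD4 T cells, CD8 T cells, B cells, alveolar macrophages and monocytes. Among these deep gates the order ran from CD4 T cells (61.5 CPM) through alveolar macrophages (58.1), CD8 T cells (53.7) and monocytes (52.5) to B cells (46.5), and each neighbour in it had an interval that overlapped the next. The shallow gates, from DC (51.6 CPM) to gamma-delta T cells (68.6 CPM), lay within or close to that span with wider intervals. In Papain WT the deep gates ran from alveolar macrophages (65.2 CPM) through CD4 T cells (63.9), monocytes (53.4) and CD8 T cells (53.3) to B cells (43.5). ILC2, innate cells that make type 2 cytokines, moved from 52.7 CPM (13 UMIs) in DPBS WT to 95.5 CPM (43 UMIs) in Papain WT, but the log2 ratio of 0.86 had an interval of -0.06 to 1.88.

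Set against all genes, the Ift20 difference lay at the edge of the distribution in T cells. Of the 9658 genes with at least 20 UMIs over the DPBS pair of CD4 T cells, 76 had a lower ratio, and after papain 112 of 10323 had one. For CD8 T cells the numbers were 28 of 10037 genes with DPBS and 16 of 10192 with papain. The all-gene medians were -0.06 and -0.13 on the log2 scale in CD4 T cells and -0.03 and -0.06 in CD8 T cells. Genes at least 2-fold lower in KO, the fold used below as the call, made up 3.75% of genes in CD4 T cells with DPBS and 4.28% with papain, and 2.08% and 1.54% in CD8 T cells. Genes at least 2-fold higher made up 1.73% and 1.28% in CD4 T cells and 1.49% and 1.04% in CD8 T cells. Ift20 itself rested on 354 to 506 UMIs per pair.

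**Figure D2:**
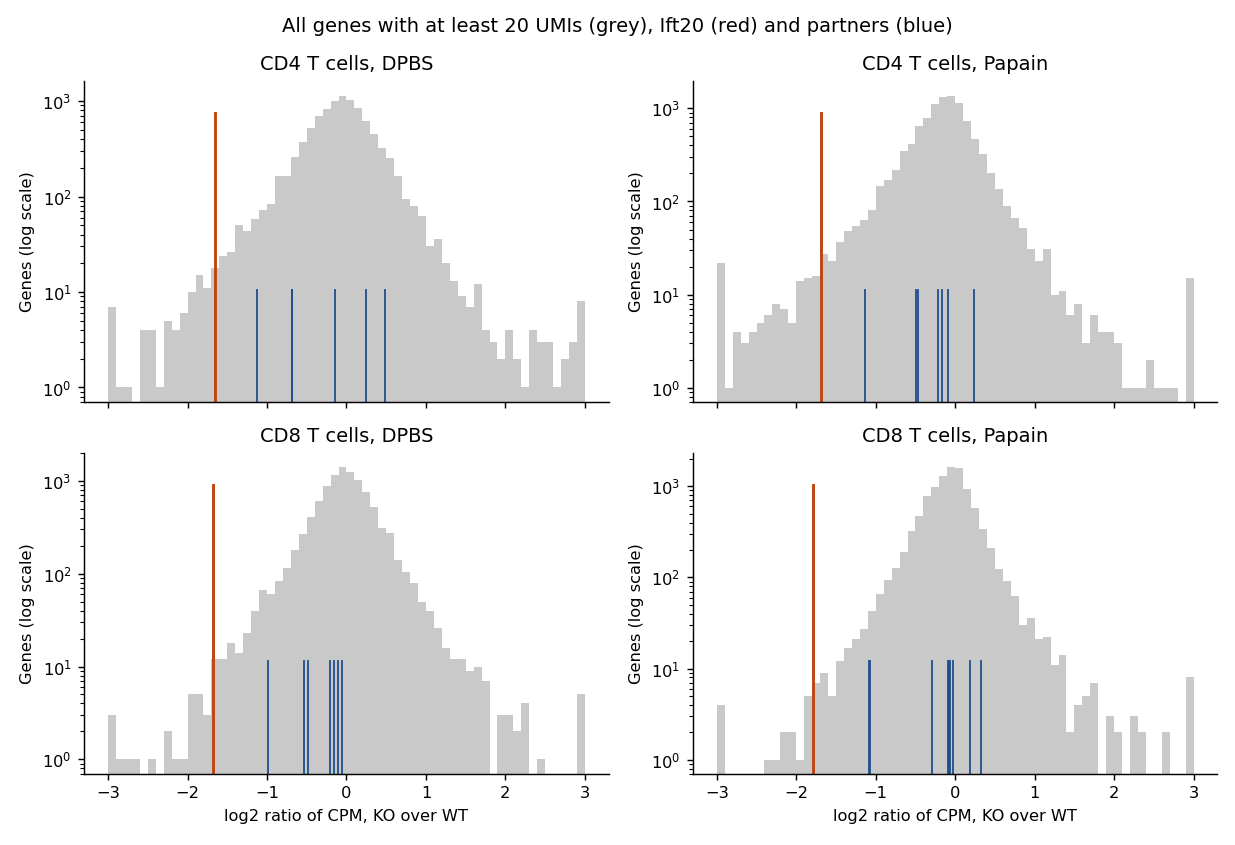
Number of genes (vertical log axis) by log2 ratio of CPM, KO over WT (horizontal axis), for all genes with at least 20 UMIs in CD4 and CD8 T cells and each treatment, with the outermost bins holding everything beyond. The tall red line is Ift20 and the short blue lines are partners with at least 20 UMIs. Ift20 stands between -1.66 and -1.79 in the 4 panels, left of every such partner.

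Of the 9366 genes with at least 20 UMIs in all 4 pairs, 2 were at least 2-fold lower in KO in each of CD4 and CD8 T cells with DPBS and with papain. These pairs come from the same 4 libraries. One was Ift20 and the other was Plk1, a kinase of mitosis, with log2 ratios of -1.71, -1.56, -1.07 and -1.47 for CD4 T cells with DPBS, CD4 T cells with papain, CD8 T cells with DPBS and CD8 T cells with papain. Plk1 had 6 to 128 UMIs per library and gate. Mki67, another gene of dividing cells, stood at 85.3 and 49.9 CPM in CD4 T cells of DPBS WT and KO and at 129 and 52.9 CPM in those of Papain WT and KO, and in CD8 T cells at 19.3 and 17.0 CPM with DPBS and 44.7 and 25.9 CPM with papain. Cells with a Mki67 or Top2a UMI made up 17.5% and 12.4% of CD4 T cells in WT and KO with papain. For CD8 T cells these shares were 7.94% and 7.80% with DPBS and, higher in KO, 10.9% and 11.9% with papain. The part of dividing cells in the Plk1 difference was not tested. A single gene, Slc15a2, which was named here after its values were seen, was at least 2-fold higher in all 4 pairs, and its ratio in B cells was also high, 1.22 with DPBS and 3.55 with papain.

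KO T cells still held 15.4 to 19.8 CPM of Ift20. Genes made mainly by other lineages and not used for gating (Igkc, Ighm, Lyz2, S100a8, S100a9 and Chil3) were taken as a measure of RNA from other cells in these gates. Their level in the T cell gates had a median of 0.909% to 1.46% of that over all kept cells of the library. The highest was Ighm in CD4 T cells of DPBS WT, at 29.4%, where Igkc, also a B cell gene, stood at 1.84%. Whether the Ighm RNA came from other cells or from the T cells was not tested, so the highest share may not measure RNA from other cells. In the KO libraries Ift20 at the median share would amount to 0.405 to 0.464 CPM. At the highest share, again that of Ighm, it would amount to 3.46 to 10.5 CPM. The observed KO levels lay above both. The gates leave out cells with more than 1 marker of another lineage, so these shares may understate RNA from other cells. How the KO levels divide between T cells with an unrecombined allele, RNA from a recombined allele and RNA from other cells was not tested.

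The genes next to Ift20 did not share its difference in CD8 T cells. Tnfaip1, which starts 28 bases before Ift20 on the other strand, had log2 ratios of -0.10 (-0.67 to 0.46) and -0.21 (-0.75 to 0.32) in CD4 T cells with DPBS and papain, and -0.01 and 0.01 in CD8 T cells. Tmem97, whose 3′ end faces that of Ift20 at a distance of 79 bases, had -1.10 (-1.94 to -0.32, 18 and 62 UMIs in KO and WT) in CD4 T cells with DPBS but 0.12 (-0.42 to 0.65) with papain, and -0.09 and -0.18 in CD8 T cells. Poldip2, Tmem199 and Nlk, the further neighbours that passed 20 UMIs, had ratios of -0.59 to 0.46 over the 4 pairs. In CD4 T cells with DPBS the intervals of Poldip2 (-0.59, -1.19 to -0.01) and Nlk (-0.48, -0.93 to -0.04) lay below 0, and Tmem199 had -0.04 (-0.80 to 0.70). The remaining neighbour, Ccnq, was not among the listed genes under that symbol.

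The partners as a group had a smaller KO over WT difference than Ift20. Their 9 summed genes stood at 105 CPM (505 UMIs) in CD4 T cells of DPBS WT and 84.3 CPM (252 UMIs) in those of DPBS KO, a log2 ratio of -0.32 (-0.54 to -0.10). After papain the sums were 104 CPM (696 UMIs) and 93.5 CPM (373 UMIs), a ratio of -0.16 (-0.34 to 0.03). CD8 T cells had 95.7 and 85.0 CPM with DPBS, a ratio of -0.17 (-0.35 to 0.01), and 98.5 and 91.7 CPM with papain, a ratio of -0.10 (-0.27 to 0.07). The sum was below WT in each pair, and in each its interval lay above that of Ift20. With DPBS 6 of 9 partners passed 20 UMIs in CD4 T cells, of which 1 was at least 2-fold lower and 0 higher (all genes 3.75% and 1.73%), at a median of -0.42 against -0.06 for all genes. After papain 7 passed, 1 was 2-fold lower and 0 higher (all genes 4.28% and 1.28%), and the median was -0.22 against -0.13. Among CD8 T cells 7 passed with DPBS and 9 with papain, 0 and 2 were 2-fold lower (all genes 2.08% and 1.54%) and 0 higher in either, and the medians were -0.21 and -0.08 against -0.03 and -0.06. Each of these 4 partner calls rested on fewer than 90 UMIs over both libraries, and the counts of 1, 1 and 2 each reached 0 under at least 1 of the alternative settings tried.

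Among the subunits of the IFT-B core, Ift46 (chr9:44767908-44793447), which docks outer dynein arm cargo, was the partner called lower in CD4 T cells with DPBS. It held 13.9 CPM in WT (67 UMIs) and 6.36 CPM in KO (19 UMIs), a log2 ratio of -1.13 (-1.95 to -0.38). With papain it held 14.1 and 10.0 CPM, a ratio of -0.49 (-1.06 to 0.06). CD8 T cells had ratios of -0.53 (-1.13 to 0.05) and, with the opposite sign, 0.19 (-0.32 to 0.70), so no direction was shared by all 4 pairs. Ift27 (chr15:78159463-78174107), a RAB-like GTPase, stood at 30.8 CPM (148 UMIs) in CD4 T cells of DPBS WT and at 19.1 CPM (57 UMIs) in those of DPBS KO, a ratio of -0.69 (-1.16 to -0.24), against -0.09 (-0.47 to 0.29) with papain. Its ratios in CD8 T cells were -0.16 (-0.57 to 0.24) and -0.06 (-0.43 to 0.31). Ift52 (chr2:163017354-163046141), a scaffold of the core, had the same split in CD4 T cells, with 18.3 CPM in DPBS WT and 11.4 CPM in DPBS KO (-0.69, -1.30 to -0.10) but 16.3 and 19.3 CPM after papain (0.24, -0.20 to 0.68). Its CD8 T ratios were -0.11 and -0.29. For Ift27, Ift46 and Ift52 alike, the ratio in CD4 T cells with DPBS was the lowest of the 4.

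Ift22 (chr5:136908150-136915404), the other RAB-like GTPase of the core, was sparse in T cells. It had 13 and 2 UMIs in CD4 T cells of DPBS WT and KO (-2.01, -5.20 to 0.13), and 33 and 9 UMIs in those of Papain WT and KO, a log2 ratio of -1.13 (-2.38 to -0.04) that made it the partner called lower there. The CD4 T gates of that pair also differed in makeup, with Cd44, high on activated T cells, at 133 CPM in WT and 73.2 CPM in KO and Foxp3 at 52.1 and 26.6 CPM. Ift22 itself stood at 9.75 CPM (10 UMIs, 4.67 to 17.9) in the Foxp3+ cells of Papain WT and at 4.94 CPM (3.40 to 6.94) in the whole gate, and the part of the makeup in its ratio was not tested. Its CD8 T cell ratios were -0.99 (-2.62 to 0.42) and -0.08 (-1.17 to 1.03). Ift22 and Ift27 were the partners with a ratio below 0 in 4 of 4 pairs. The all-gene medians with DPBS and papain were below 0 there too, at -0.06 and -0.13 in CD4 and -0.03 and -0.06 in CD8 T cells. The ratio nearest 0 was -0.08 for Ift22 and -0.06 for Ift27. Ift88 (chr14:57424062-57517936), a core subunit whose loss abolishes cilia, had 3 to 16 UMIs in the CD4 and CD8 T gates of each library and ratios from -1.09 (-2.45 to 0.18) in CD8 T cells with papain, where it was called lower, to 0.66 (-0.79 to 2.14) in those with DPBS.

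The peripheral IFT-B subunits, the group to which IFT20 itself belongs, gave no common direction. Ift57 (chr16:49699233-49765126), a direct binding partner of IFT20, held 5.20 and 4.69 CPM in CD4 T cells of DPBS WT and KO and 6.59 and 4.76 CPM after papain, with log2 ratios of -0.15 (-1.21 to 0.85) and -0.47 (-1.33 to 0.34). The ratios in CD8 T cells were -0.21 (-1.09 to 0.63) and 0.33 (-0.59 to 1.27). Ift80 (chr3:68892499-69004570), a subunit whose mutation in people causes a skeletal ciliopathy, stood at 26.6 and 31.5 CPM in CD4 T cells of DPBS WT and KO and at 29.2 and 26.1 CPM in those of Papain WT and KO. Its ratios were 0.24 (-0.16 to 0.64) and -0.16 (-0.52 to 0.19) there, and -0.06 (-0.35 to 0.22) and -0.09 (-0.39 to 0.22) in CD8 T cells. These CD4 and CD8 T cell intervals leave out a 2-fold difference in either direction. T cells without a Cd4 or Cd8 UMI held 41.4 and 38.0 CPM of Ift80 in DPBS WT and KO. After papain they held 39.2 CPM (32.3 to 47.1) in WT and 24.8 CPM (18.7 to 32.2) in KO. Ift172 (chr5:31253277-31291116), which contacts membranes and IFT-A, had 6 to 14 UMIs in the CD4 and CD8 T gates of each library. Its ratios ran from -1.07 (-2.53 to 0.29) in CD8 T cells with papain, likewise a call, to 0.69 (-0.93 to 2.30) in CD4 T cells with DPBS.

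Ift140 (chr17:25016085-25099495), a core subunit of IFT-A and the partner outside IFT-B, held 4.99 and 7.03 CPM in CD4 T cells of DPBS WT and KO and 5.84 and 5.01 CPM in those of Papain WT and KO. Its log2 ratios were 0.49 (-0.42 to 1.40) and -0.22 (-1.08 to 0.59) there and -0.49 (-1.26 to 0.25) and -0.03 (-0.72 to 0.68) in CD8 T cells. The annotation places other genes over 4 of the partners (Tmem204 over Ift140, Gm15518 over Ift57, Ift88os and a pseudogene over Ift88, and several pseudogenes over Ift80), of which those on the same strand lie over Ift80.

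**Figure D3:**
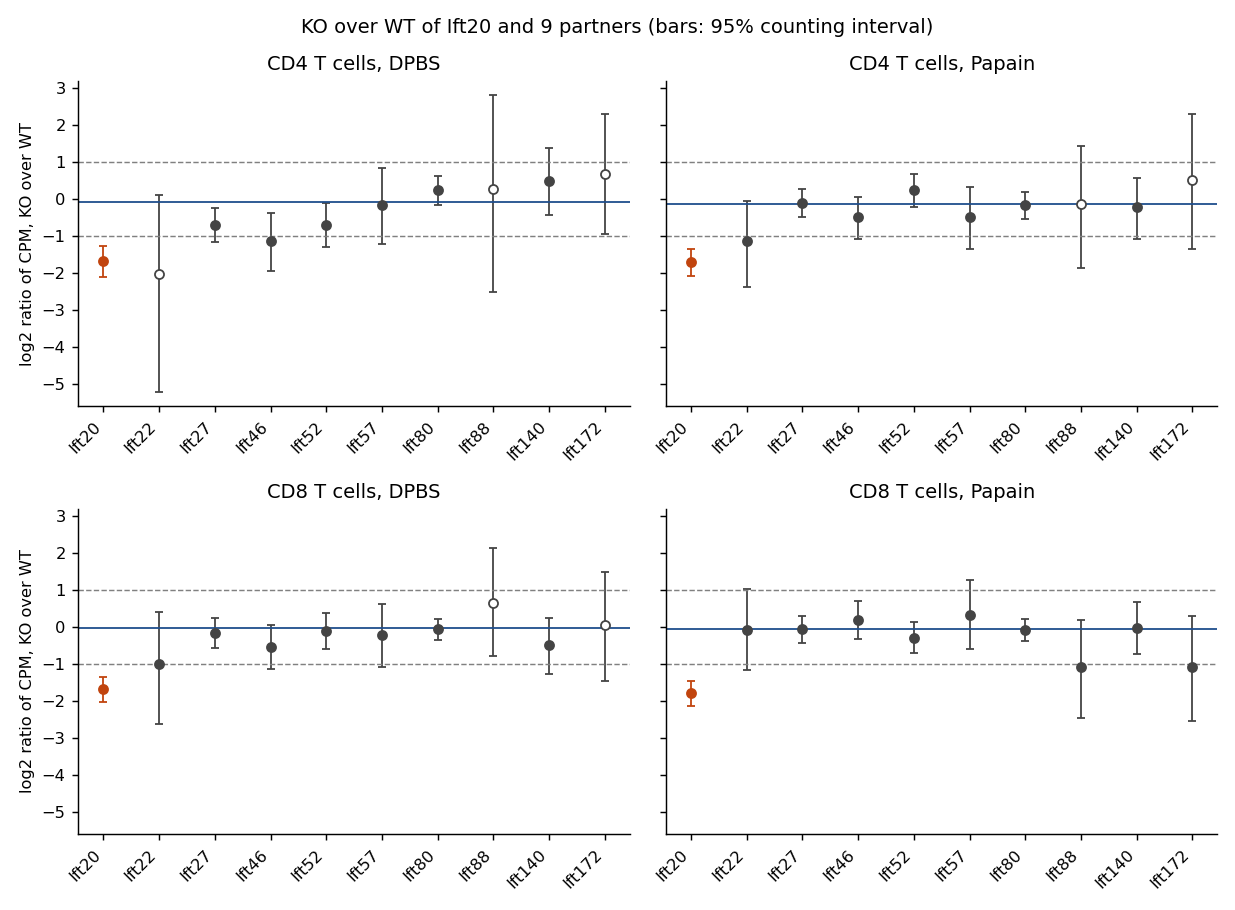
log2 ratio of CPM, KO over WT (vertical axis), of Ift20 (red) and its 9 partners (grey) in CD4 and CD8 T cells with DPBS or papain, with 95% counting intervals. Open points have under 20 UMIs over both libraries, dashed lines mark 2-fold and the blue line is the median of all genes. Ift20 lies at -1.66 to -1.79 in each panel, while the partners' medians lie at -0.42 and -0.22 in CD4 T cells and at -0.21 and -0.08 in CD8 T cells, each below the blue line.

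Outside the CD4 and CD8 gates the partners' sum varied in both directions. In T cells without a Cd4 or Cd8 UMI, where Ift20 was low in KO, the log2 ratio of the sum was -0.05 (-0.32 to 0.21) with DPBS and -0.15 (-0.42 to 0.11) with papain. B cells, outside the lineage in which Cd4 drives Cre, had -0.08 (-0.22 to 0.05) and -0.09 (-0.21 to 0.03). In alveolar macrophages the sum was 0.05 (-0.04 to 0.13) and 0.25 (0.12 to 0.37), in monocytes -0.13 (-0.33 to 0.07) and -0.28 (-0.47 to -0.09), and in DC -0.44 (-0.87 to -0.02) and 0.47 (0.14 to 0.81). Sums thus differed by 0.25 or more on the log2 scale, in either direction, in alveolar macrophages, monocytes and DC with papain, where the Ift20 ratios were -0.15, -0.10 and 0.00. Single partners with at least 20 UMIs had ratios of -1.13 to 0.49 in CD4 and CD8 T cells, and of -0.70 to 0.67 in B cells, alveolar macrophages and monocytes. The 29 ratios in the T cell gates had a median of -0.16, and the 51 in the other gates a median of 0.02. The all-gene medians with DPBS and papain were also below 0 in CD4 (-0.06 and -0.13) and CD8 T cells (-0.03 and -0.06). In B cells they were 0.01 and -0.02. Counts of partner ratios below 0 are not given, since the share of all genes below 0 was not counted. The gates share their 4 libraries, so the partner ratios are not independent of each other. The largest in the other gates were Ift57 in monocytes with papain (-0.70, -1.28 to -0.15) and in B cells with DPBS (0.67, -0.21 to 1.55).

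**Figure D4:**
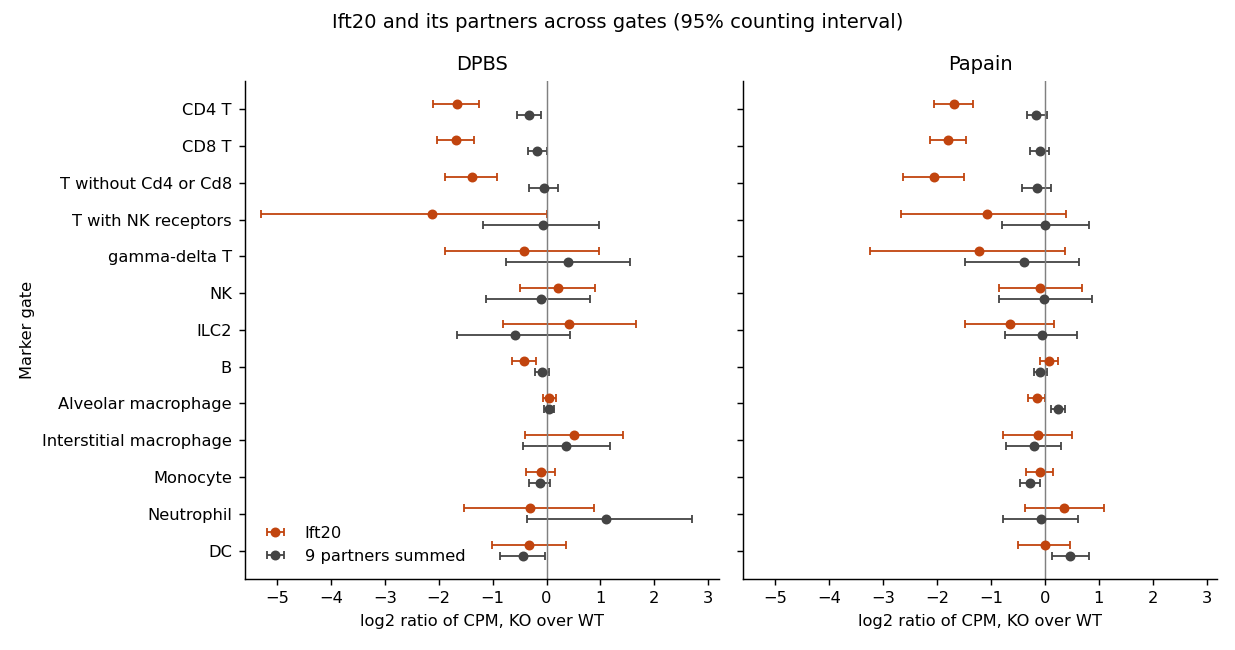
log2 ratio of CPM, KO over WT (horizontal axis), of Ift20 (red) and of the 9 partners summed (grey) in the 13 marker gates (vertical axis), with DPBS on the left and papain on the right and 95% counting intervals. In CD4 T cells the pairs of values are -1.66 and -0.32 with DPBS and -1.69 and -0.16 with papain.

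Several partners differed more between cell types than between genotypes within a cell type. Among the 5 deepest gates Ift80 was highest in T cells, with 26.6 CPM in CD4 T cells and 36.0 CPM in CD8 T cells of DPBS WT against 7.41 CPM in B cells. Papain WT had 29.2, 31.6 and 6.33 CPM in these gates, and alveolar macrophages and monocytes held 1.17 to 1.74 CPM in the WT libraries. Ift22 had the opposite pattern, with 2.70 and 2.38 CPM in CD4 and CD8 T cells of DPBS WT against 10.5, 14.6 and 17.6 CPM in B cells, alveolar macrophages and monocytes. For both genes the intervals of these T cell gates and of the other gates did not overlap in the WT libraries.

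Ift140 was highest in B cells among these gates, with 22.5 CPM in DPBS WT and 25.2 CPM in Papain WT. In DPBS WT it stood at 11.5 CPM in alveolar macrophages, 4.99 CPM in CD4 T cells and 2.82 CPM in monocytes. Ift172 was highest of these gates in monocytes, where it stood at 22.8 CPM (18.6 to 27.6) in DPBS WT and at 13.2 to 15.1 CPM in the other libraries, against 1.66 CPM in CD4 T cells and 3.04 CPM in alveolar macrophages of DPBS WT. Interstitial macrophages, a shallow gate, had 13.4 to 16.9 CPM of it over the 4 libraries. Ift57 stood at 14.6 CPM in alveolar macrophages of DPBS WT and at 2.27 CPM in B cells. The KO libraries had levels of the same order, with 28.5 and 22.0 CPM of Ift140 in B cells and 17.8 and 19.0 CPM of Ift57 in alveolar macrophages of DPBS KO and Papain KO. In alveolar macrophages Ift57 was still higher in Papain KO (16.1 to 22.2) than in Papain WT (12.3 CPM, 10.4 to 14.5), with separate intervals. Ift27, Ift46 and Ift52 varied less, with Ift52 between 13.2 and 23.0 CPM over the 5 deepest gates of the WT libraries.

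**Figure D5:**
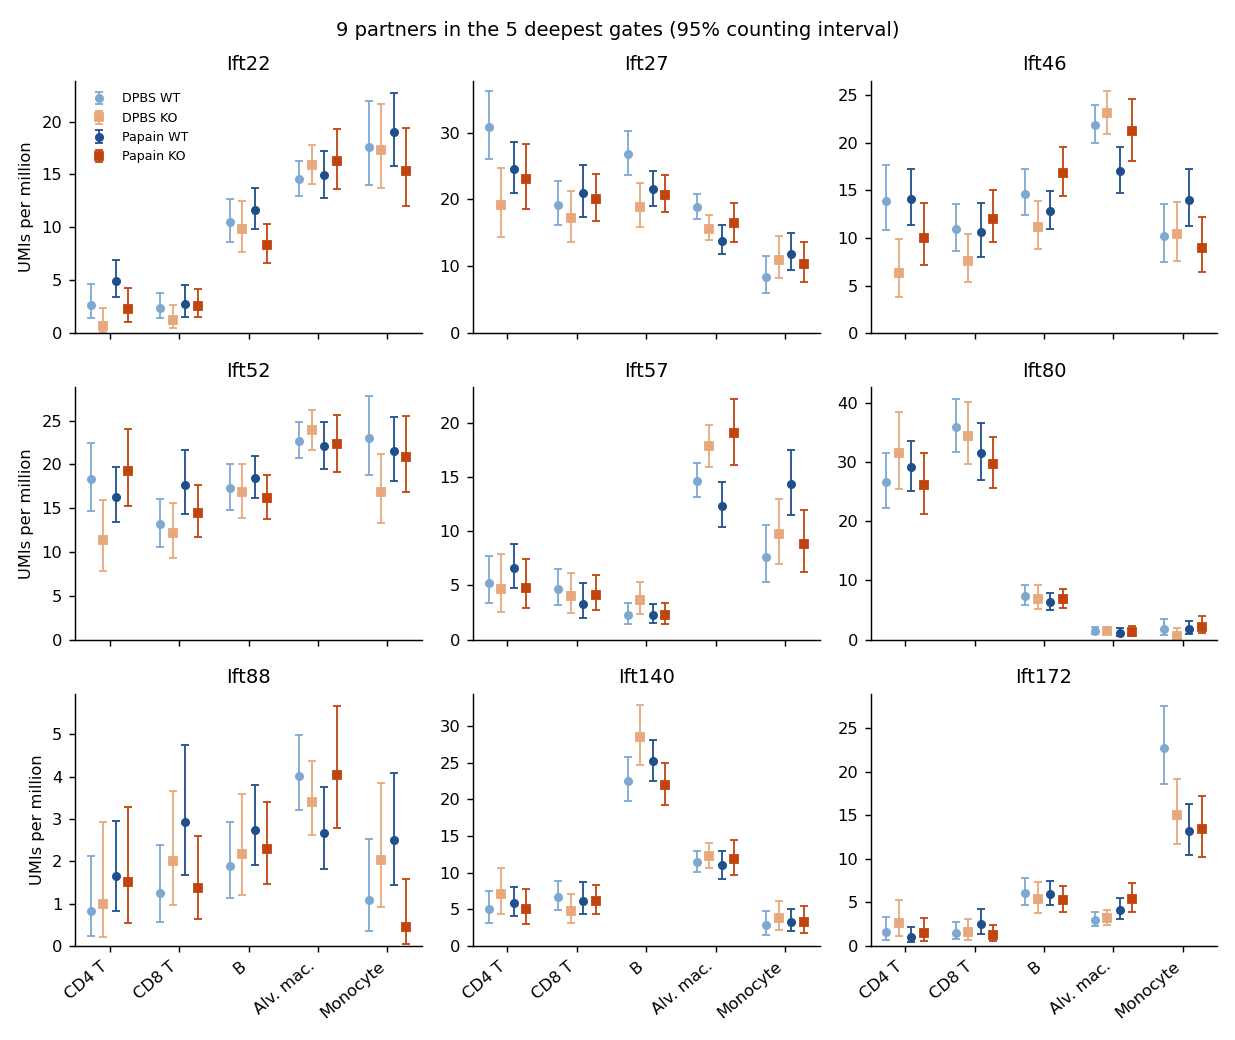
Levels of the 9 partners in CPM (vertical axes, each on its own scale) in the 5 deepest marker gates (horizontal axis) of the 4 libraries, with 95% counting intervals. Ift80 stands at 26.1 to 36.0 CPM in T cells against at most 7.41 CPM in B cells, Ift140 is highest in B cells and Ift172 in monocytes, in WT and KO libraries alike.

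The partners were not among the genes whose levels across gates were most like those of Ift20. Over the 26 points given by 13 gates in the 2 WT libraries, Pearson's r of log2(CPM + 1) with Ift20 was highest for Psma2 (0.83), S100a13 (0.81), Bag1 (0.81), Ccdc25 (0.81) and Ndufa13 (0.79) among 10943 genes with at least 200 UMIs. Partners ranked from 2422, for Ift52 (r = 0.40), to 8727, for Ift57 (r = -0.14). The points of a library share its preparation, and small gates hold few UMIs. Over the 12 points above 2000000 UMIs the leading genes had r of 0.52 to 0.84, and Ift57 had 0.61.

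The wider machinery was sparse in T cells, so that few of its genes could be placed. Of 9 other IFT-B genes 4 passed 20 UMIs in CD4 T cells with DPBS and 4 with papain, and 0 and 1 were at least 2-fold lower in KO, where 3.75% and 4.28% of all genes were. The latter was Ift74, a subunit that with Ift81 binds tubulin, with 19 UMIs in WT and 5 in KO (log2 ratio -1.18, -2.96 to 0.29). Hspb11 (Ift25), the dimer partner of Ift27, had ratios of 0.01 (-0.35 to 0.35) and 0.02 (-0.29 to 0.34), and Traf3ip1 (Ift54), which binds IFT20, had -0.05 (-1.22 to 1.05) and -0.89 (-2.16 to 0.23). Cluap1 had -0.27 (-0.94 to 0.38) and -0.26 (-0.81 to 0.28). In CD8 T cells with DPBS and papain Cluap1 had -0.42 (-0.92 to 0.07) and -0.32 (-0.81 to 0.17), Hspb11 -0.15 and 0.24, and Traf3ip1 0.63 and 0.08.

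Of 5 other IFT-A genes 1 passed in each treatment, and it was called lower with papain (all genes 4.28%). This was Ttc21b (Ift139), with 36 and 9 UMIs in Papain WT and KO (-1.26, -2.50 to -0.17) and 20 and 10 with DPBS (-0.31, -1.57 to 0.85). Of 9 motor genes 5 passed in each, and 0 were called lower with DPBS and 1 with papain (all genes 3.75% and 4.28%). That gene was Dync2h1, the heavy chain of dynein-2, with 40 and 6 UMIs in WT and KO (-1.99, -3.52 to -0.75). With DPBS it had 12 UMIs in each genotype (0.69, -0.60 to 1.97), so it did not keep its direction. Of the kinesin-2 motor subunits, Kif3a had 0.10 (-0.99 to 1.15) with DPBS and -0.96 (-1.86 to -0.13) with papain, and Kif3b had -0.56 (-1.31 to 0.15) and -0.34 (-0.91 to 0.21).

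The BBSome, a coat that carries membrane proteins on the transport particles, had 3 of 9 genes past 20 UMIs with DPBS and 4 with papain, and 1 called lower in each (all genes 3.75% and 4.28%). These were Bbs4 with DPBS (26 and 8 UMIs, -1.01, -2.37 to 0.17) and Bbs2 with papain (23 and 6 UMIs, -1.19, -2.78 to 0.14). Bbip1, a small BBSome subunit, had ratios of -0.43 (-0.78 to -0.08) and -0.42 (-0.71 to -0.14) in CD4 T cells and -0.14 (-0.45 to 0.17) and 0.00 (-0.31 to 0.32) in CD8 T cells. Bbs9 had -0.59 (-1.44 to 0.21) and -0.41 (-1.07 to 0.22) in CD4 T cells and -0.34 (-0.86 to 0.16) and -0.37 (-0.89 to 0.15) in CD8 T cells. Among CD8 T cells 4 other IFT-B genes, 1 other IFT-A gene, 4 motor genes and 4 BBSome genes passed 20 UMIs with either treatment. Of these, 0 were at least 2-fold lower in KO, against 2.08% of all genes with DPBS and 1.54% with papain.

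All 8 genes of Golgi tethering and receptor recycling passed 20 UMIs in CD4 and CD8 T cells, and 0 were 2-fold lower or higher in KO, which for 8 genes is also near the all-gene shares of 1.04% to 4.28%. Trip11 (GMAP210), which anchors IFT20 at the Golgi, had log2 ratios of -0.16 (-0.45 to 0.12) and -0.08 (-0.32 to 0.15) in CD4 T cells. Tsg101, a subunit of the ESCRT machinery that sorts ubiquitinated receptors, stood at 0.06 (-0.25 to 0.36) and -0.30 (-0.56 to -0.04) in CD4 T cells and at 0.22 (-0.06 to 0.50) and 0.29 (0.00 to 0.59) in CD8 T cells. Cd247, the zeta chain of the T cell receptor, stood at 274 and 216 CPM in CD4 T cells of DPBS WT and KO (-0.34, -0.48 to -0.20) and at 210 and 196 CPM with papain (-0.10, -0.23 to 0.03). Rab11a, a GTPase of recycling endosomes, had 59.1 and 59.2 CPM with DPBS (0.00, -0.27 to 0.28) and 76.6 and 57.1 CPM with papain (-0.42, -0.65 to -0.20). Neither difference was shared by both treatments at its full size. The list's medians were -0.12 and -0.09 in CD4 T cells and -0.07 and -0.10 in CD8 T cells.

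Ift20 levels were similar with papain and with DPBS in T cells of either genotype. The log2 ratio of papain over DPBS was 0.05 (-0.16 to 0.27) in WT and 0.03 (-0.48 to 0.54) in KO, and in CD8 T cells it was -0.01 (-0.24 to 0.21) and -0.12 (-0.56 to 0.31). The summed partners had -0.01 (-0.18 to 0.16) in CD4 T cells of WT and 0.15 (-0.09 to 0.38) in those of KO, and 0.04 (-0.12 to 0.21) and 0.11 (-0.07 to 0.29) in CD8 T cells. Of 7 partners with at least 20 UMIs in CD4 T cells of WT 0 were 2-fold higher and 0 lower, where 6.38% of all genes were higher and 1.11% lower. In CD4 T cells of KO 6 passed, and again 0 were higher and 0 lower, against 2.92% and 0.808% of all genes. For CD8 T cells 9 passed in WT, with 1 higher and 0 lower (all genes 3.35% and 0.990%), and 7 in KO, with 1 higher and 0 lower (all genes 2.39% and 0.718%). These were Ift88 in WT, with 9 UMIs with DPBS and 16 with papain (1.21, -0.05 to 2.57), and Ift22 in KO, with 6 and 17 UMIs (1.11, -0.30 to 2.74). In CD4 T cells of KO Ift52 moved from 11.4 to 19.3 CPM (0.76, 0.16 to 1.39), and the all-gene medians of the papain ratios in CD4 T cells were 0.11 in WT and 0.06 in KO.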

How the data were processed

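Per the labels, 4 libraries of sorted lung immune cells, 1 per group, were made with 10x 3′ v3 chemistry. The authors deposited UMI counts per gene and called cell, not normalized. The submitters' processing notes name Cell Ranger and mm10, and the file headers software version 3.1.0. Annotation, cell calling and any doublet removal are not given in the sources used here. The 3′ reads count transcripts near their ends, so levels of different genes were not compared.

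Barcodes with over 200 genes and under 15% mitochondrial UMIs were kept (thresholds stated for another experiment of the study). Scrublet (in scanpy 1.11.5, with numpy 2.4.6 and Python 3.11.15, tables in pandas 2.3.3, intervals in scipy 1.17.1) ranked doublets, and the top barcodes were removed at 0.8% per 1000 barcodes (275 to 585 per library), since its own threshold marked 0.0175% in Papain KO. Gates needed at least 2 distinct own markers (3 for alveolar macrophages and ILC2) and allowed at most 1 of each other lineage, and 754 to 1174 barcodes per library entered none.

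UMIs were pooled per gate and library and given as CPM with exact Poisson intervals. Ratios have exact conditional (Clopper-Pearson) intervals. Genes needed 20 UMIs over both libraries, and 2-fold was the call. With 1 library per group no test was run. The procedure was tested on simulated data with known folds. These were independent Poisson counts, as the intervals assume. The simulation therefore checks the calculation only, and leaves out UMIs that cluster in single cells and differences between libraries. Positions and the transcript sequence are from GENCODE M21 (GRCm38), which may differ from the authors' annotation.

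The 10 genes were named outright. From the wider lists, genes at least 2-fold different in CD4 T cells with at least 20 UMIs were named, up to 4 a list. Hspb11, Traf3ip1, Cluap1, Kif3a, Kif3b, Bbip1, Bbs9, Trip11, Tsg101, Cd247 and Rab11a were named outside that rule, after their values were seen. Also named were genes at least 2-fold lower in all 4 T cell pairs, the 5 genes most correlated with Ift20 and the 3 coding genes on each side of it. The genes, lists and rules were chosen with earlier results of these data known. Alternatives included other gates, doublet and mitochondrial settings and scalings (TMM in edgeR 4.0.16, median of ratios). One division of CD4 T cells by marker genes is not reported here.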

Additional observations from a re-analysis of the deposited data

How the results depend on the processing

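Ift20 stayed lower in KO T cells under each of the 9 alternatives given here for CD4 T cells and the 8 for CD8 T cells, with log2 ratios of -1.67 to -1.32 (DPBS) and -1.81 to -1.40 (papain) in CD4 T cells and of -1.72 to -1.40 and -1.80 to -1.28 in CD8 T cells. The value that left its interval came from allowing no marker of another lineage, which kept 36.5% to 45.9% of CD8 T cells: Ift20 was then -1.28 in CD8 T cells with papain, and the summed partners were 0.01 with DPBS and -0.33 with papain. Counts of partners at least 2-fold lower rested on sparse genes. In CD4 T cells with DPBS the count of 1 became 0 with T cells lacking Cd4 and Cd8 UMIs added and with each cell capped at 1 UMI, and 2 with no minimum of UMIs. With papain the count of 1 became 0 with a minimum of 50 UMIs and without dividing cells, where Ift22 had a log2 ratio of -1.41 on fewer UMIs than the minimum. A further setting, a division of CD4 T cells not reported here, also ended that call and is not in the ranges given. In CD8 T cells with DPBS the count of 0 became 1 with no foreign marker allowed and with a mitochondrial limit of 10%. With papain the count of 2 became 0 with no foreign marker allowed and with a minimum of 50 UMIs, and 1 with the cap, the 10% limit, TMM factors and median-of-ratios factors. TMM and median-of-ratios factors raised all log2 ratios of CD4 T cells with papain by 0.11 and 0.12, and moved the papain over DPBS ratios of WT CD4 T cells by -0.11. The papain over DPBS ratio of Ift20 in CD4 T cells ranged from -0.06 to 0.14 in WT and from -0.30 to 0.25 in KO. No paired analysis was possible because each group holds 1 library, and no library could be left out for the same reason.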
